A study of Mus musculus with 18 samples.

Results

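Outside the cytokine genes, 7 genes were taken from the extremes of the difference between tolerized (T) and naive (N) CD4+ T cells of Tg4 mice, either at rest or after peptide antigen (Ag). They were Scg2, Kcnc1, Greb1, Kcnh3, Sp6, Lipg and Plaur, of 37991 genes counted and 17240 genes tested, and all 7 had a mean normalized count of 3 or more in some group, the limit set for testing. Greb1, Sp6 and Kcnh3 were the 3 largest falls of resting tolerized against resting naive cells (T0:N0). Scg2 and Kcnc1 were among the 3 largest rises after Ag (TAg:NAg), and Lipg and Plaur were among the 3 largest falls, with cytokine genes counted in the ranks. The largest rises at rest were not taken, although Ngp and Ltf, at ranks 1 and 2 there, are not cytokine genes, so the 7 are a list of extreme genes and not all of them. The ranking took genes with an edgeR adjusted p under 0.05, a fold of at least 2, a mean normalized count over 50 in whichever group was higher and no overlap between replicates. Because the resting and Ag values chose the genes, T0:N0 and TAg:NAg are given below as values with no test. Responses sharing a library with the comparison that chose a gene also have no test. Tests are given above all between cells treated with PMA and calcium ionophore (PI), TPI:NPI, whose libraries the choice did not use. The 4 genes chosen after Ag were also tested in NPI:N0 and TPI:T0, and the 3 chosen at rest in NPI:NAg and TPI:TAg. These share no library with the comparison that chose the gene, but the choice of the whole set did use their resting or Ag libraries.

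The study comprised 18 RNA-seq libraries of spleen CD4+ T cells from mice of the Tg4-H2u strain, aged 6 to 12 weeks, with 3 biological replicates in each of 6 groups. All the mice carry a transgenic TCR for a peptide of myelin basic protein, and every group was enriched for CD4+ cells with a magnetic kit rather than sorted. T mice had been tolerized by repeated subcutaneous injections of rising doses of the 4Y peptide, an analog with high affinity for the MHC, whereas N mice had received PBS on the same schedule, so N cells are mostly but not only naive. T0 and N0 cells were taken 2 h after a last injection of PBS, and TAg and NAg cells 2 h after a last injection of 80 μg of the 4Y peptide. TPI and NPI cells were cultured for 2 h with PMA at 20 ng/mL and the calcium ionophore A23187 at 2 μM, which act downstream of the TCR. The last injection of the mice behind the PI groups is not stated. No library of cells cultured without PI was among those analysed here, so culture and PI cannot be told apart when PI-treated cells are set against fresh cells.

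The 7 genes belong to unrelated families. Scg2 encodes secretogranin II, a granin of the dense-core vesicles of neuroendocrine cells that is cleaved into the peptide secretoneurin. Kcnc1 and Kcnh3 encode pore-forming subunits of voltage-gated potassium channels that are best known in neurons. Greb1 is known as an estrogen-induced gene whose product binds the estrogen receptor, and Sp6 encodes a zinc finger transcription factor of the SP family with roles in skin and teeth. Lipg encodes endothelial lipase, a secreted phospholipase acting on high-density lipoproteins, and Plaur encodes the membrane-anchored receptor of the urokinase plasminogen activator. In T cells, TCR signals raise intracellular calcium and activate protein kinase C, and PI mimics both, so that PI bypasses the receptor and the enzymes next to it.

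Total counts ranged from 10758571 to 24119489 per library and were highest after PI. The 10 T cell markers listed, Cd4 and the CD3 chains among them, were found in every group, with summed normalized counts of 24300 to 70520. Markers of other cells were present too, and 12 of 13 neutrophil markers were called higher in T0:N0 and in TAg:NAg, and 7 of 13 in TPI:NPI. Reads of Y-linked genes showed that the groups were not matched for sex. All NPI and TPI libraries, T0 replicates 1 and 2 and TAg replicate 3 held at least 5111 such reads, and the others, all N0 and NAg libraries included, held at most 18. TPI:NPI thus compared libraries of 1 kind, whereas in NPI:N0 and NPI:NAg the sex of the mice and the PI treatment cannot be told apart. In bulk RNA, fewer cells of a type and less RNA per cell cannot be told apart either.

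**Figure D1:**
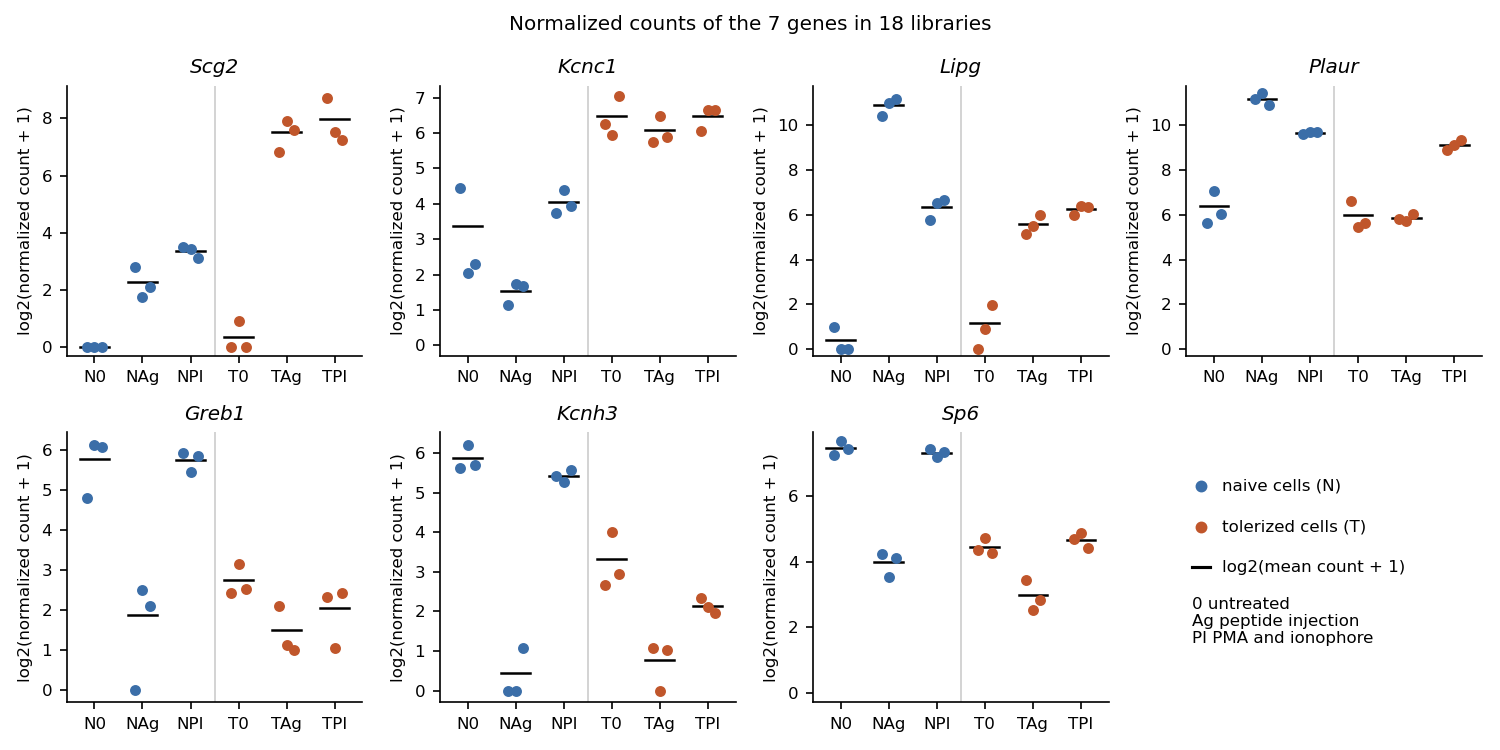
Normalized counts of the 7 genes as log2(count + 1), with 1 point per library and a line at the log2 of the group mean plus 1. Naive (blue) and tolerized (orange) cells are shown at rest, after Ag injection and after PI. The resting groups, marked untreated in the figure, were taken after a last injection of PBS. Scg2 stayed at or below 10.4 in all naive libraries and was at least 111 in all TAg and TPI libraries, and Greb1, Kcnh3 and Sp6 were high in N0 and NPI only.

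Of the 7 genes, 2 were called higher and 3 lower in TPI than in NPI, in libraries that had no part in choosing them. Scg2 and Kcnc1 were higher, as they had been after Ag, and Greb1, Kcnh3 and Sp6 were lower, as they had been at rest. Lipg and Plaur, which had differed 40.2-fold each after Ag, were not called. Called means here an edgeR adjusted p under 0.05 and a fold of at least 2, and of all genes tested 5.27% were called higher and 4.07% lower in TPI:NPI. The replicates of TPI and NPI did not overlap for 6 of the 7 genes, with Lipg as the exception, and for 50.5% of all genes tested. The number of members called was 4 or 5 under the alternatives run.

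**Figure D2:**
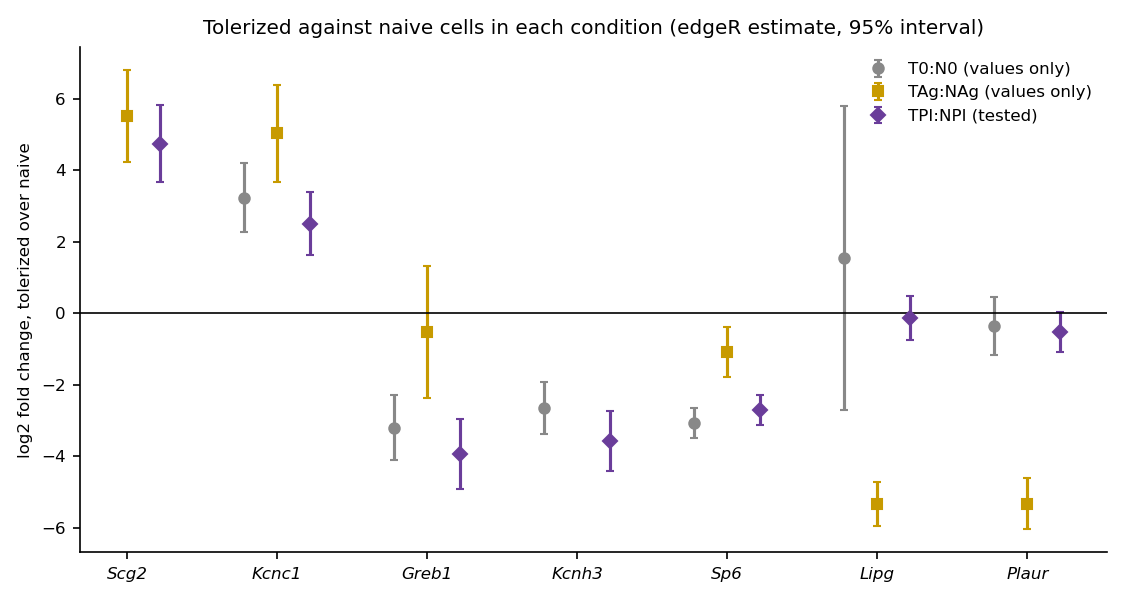
Log2 fold change of tolerized over naive cells for each gene at rest (grey), after Ag (yellow) and after PI (purple), from the edgeR model with its 95% interval. The PI values lay on the same side as the values that chose Scg2, Kcnc1, Greb1, Kcnh3 and Sp6. For Lipg the PI value was near 0, and for Plaur it was -0.54 (95% interval -1.09 to 0.02). Only the PI values were tested, and comparisons with at most 3 reads in each group are left out.

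Scg2 (ENSMUSG00000050711, NCBIM37 chromosome 1, 79431244 to 79436665, minus strand) was nearly silent at rest and was high in tolerized cells after Ag and after PI. It had 0 reads in all 3 N0 libraries and 1 read in the 3 T0 libraries together. After Ag, the normalized counts were 5.99, 2.35 and 3.30 in NAg and 111, 239.6 and 194 in TAg, a mean of 3.88 ± 1.89 (SD, n = 3) against 182 ± 65.1. After PI, they were 10.4, 9.90 and 7.64 in NPI and 414, 183 and 149 in TPI, a mean of 9.31 ± 1.47 against 249 ± 144. The TAg and TPI libraries were thus all high, and the lowest of them stood far above the highest library of naive cells. The difference TPI:NPI was 4.74 on the log2 scale (SE 0.49, edgeR adjusted p = 6.24e-06), against a value of 5.51 (95% interval 4.22 to 6.80) for TAg:NAg. In the order of group means, TPI and TAg came first with overlapping replicates, followed by NPI, NAg, T0 and N0, of which only T0 and N0 overlapped.

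Scg2 was also higher after PI within each cell state, in comparisons that shared no library with TAg:NAg, which chose it. They did use resting libraries, which chose other members. In NPI:N0 there were 28 reads against 0 reads (edgeR adjusted p = 0.00783). With 3 reads over the 3 N0 libraries as the limit for a count of 0, the ratio was 9.11. The edgeR 95% interval of the log2 fold change was 2.40 to 10.08. In TPI:T0 there were 884 reads against 1 read, a ratio of 829 with a 95% counting interval of 148 to 32800 (edgeR adjusted p = 1.74e-07). The counting interval covers counting error only, and the limit covers that of the N0 reads but not that of the NPI reads. The difference was thus detected in both states, but whether the responses differ between the states was not tested.

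The window of 250 bases before the RefSeq start of Scg2 (GRCm38.p6, chr1:79440027-79440276, minus strand) is shown because it matches the letters of a whole cyclic AMP response element, the palindrome TGACGTCA known to be bound by CREB and related factors, which contains the shorter element TGACG on each strand. It is given 5′ to 3′ with matches in capitals.
Scg2: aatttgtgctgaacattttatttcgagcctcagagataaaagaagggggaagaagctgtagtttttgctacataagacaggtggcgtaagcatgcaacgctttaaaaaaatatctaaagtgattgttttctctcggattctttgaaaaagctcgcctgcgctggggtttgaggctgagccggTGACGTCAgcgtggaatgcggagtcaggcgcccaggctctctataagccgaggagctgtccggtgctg
The element starts 68 bases before the start of transcription. The same letters were present in 1.55% of the 32851 promoter windows of the same length. No match was found here for TGANTCA (AP-1), GGAAA (the core of NFAT sites), GCGNGGGCG (EGR), TATAAA or GGGCGG (GC box) on either strand. A match is a description of the letters and not evidence of binding, and the absence of one applies to this window only.

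Kcnc1 (ENSMUSG00000058975, NCBIM37 chromosome 7, 53651867 to 53693745, plus strand) was higher in tolerized than in naive cells in every condition, with similar levels in T0, TAg and TPI. The normalized counts were 20.8, 3.13 and 3.97 in N0, 1.199, 2.35 and 2.20 in NAg and 12.5, 19.8 and 14.4 in NPI. In tolerized cells they were 75.2, 60.9 and 130.4 in T0, 52.8, 89.4 and 58.4 in TAg and 65.4, 99.9 and 100.2 in TPI. All 9 libraries of tolerized cells lay above all 9 of naive cells. In TPI:NPI the means were 88.5 ± 19.97 and 15.6 ± 3.79 (SD, n = 3), a log2 fold change of 2.5 (SE 0.42, edgeR adjusted p = 1.18e-04). The values that chose the gene were a log2 fold change of 5.03 in TAg:NAg, and that at rest was 3.22, the 28th rise in the ranking of T0:N0.

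No response of Kcnc1 to PI was detected. In TPI:T0 the 95% interval of the log2 fold change was -0.73 to 0.73 (edgeR adjusted p = 0.992), which leaves room for changes of up to that size. In NPI:N0 the log2 fold change was 0.71 (SE 0.55, edgeR adjusted p = 0.279), and it was 2.04 without N0 replicate 1 (edgeR adjusted p = 0.00415), the naive library with the highest count. The groups T0, TPI and TAg overlapped in this order of means, and NPI and N0 overlapped, whereas NAg lay below N0 in every library.

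Across the libraries Kcnc1 moved together with Elane and Mpo, which are genes of neutrophil granules. Over the 18 libraries, the 3 genes of the 11554 eligible ones with the highest Pearson correlation to Kcnc1 on the log2(count + 1) scale were Dnaja4 (r = 0.959), Elane (r = 0.94) and Mpo (r = 0.931), as a description over libraries that fall into 6 groups. Elane and Mpo encode neutrophil elastase and myeloperoxidase, made early in neutrophil development, and were on the list of neutrophil markers. Elane averaged 3.36 normalized counts in N0, 1.93 in NAg, 12.5 in NPI, 65.7 in T0, 42.4 in TAg and 52.1 in TPI, and Mpo averaged 25.8, 33.8, 85.5, 384, 337 and 388 in the same order. Within groups, the library with the most Kcnc1 was also the highest for Elane and Mpo in N0 (replicate 1), in NPI (replicate 2), in T0 (replicate 3) and in TPI (replicate 3). In NAg this held for Mpo but not for Elane, and in TAg for neither. The order rested on near ties of Kcnc1 in TPI, with 99.9 in replicate 2 and 100.2 in replicate 3. It did so too in NAg, where replicates 2 and 3 had 2 reads each.

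The summed level of all 13 neutrophil markers followed Kcnc1 less closely. It was 154 to 289 in N0, 244 to 528 in NAg, 149 to 238 in NPI, 2249 to 3658 in T0, 2696 to 4965 in TAg and 500.1 to 814 in TPI. From T0 to TPI this sum was lower in every library, whereas Kcnc1, Elane and Mpo stayed at similar levels. No neutrophil marker was at 0 in all libraries of any group but NPI, where 4 were. The part of neutrophil RNA in the Kcnc1 values was not tested.

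**Figure D3:**
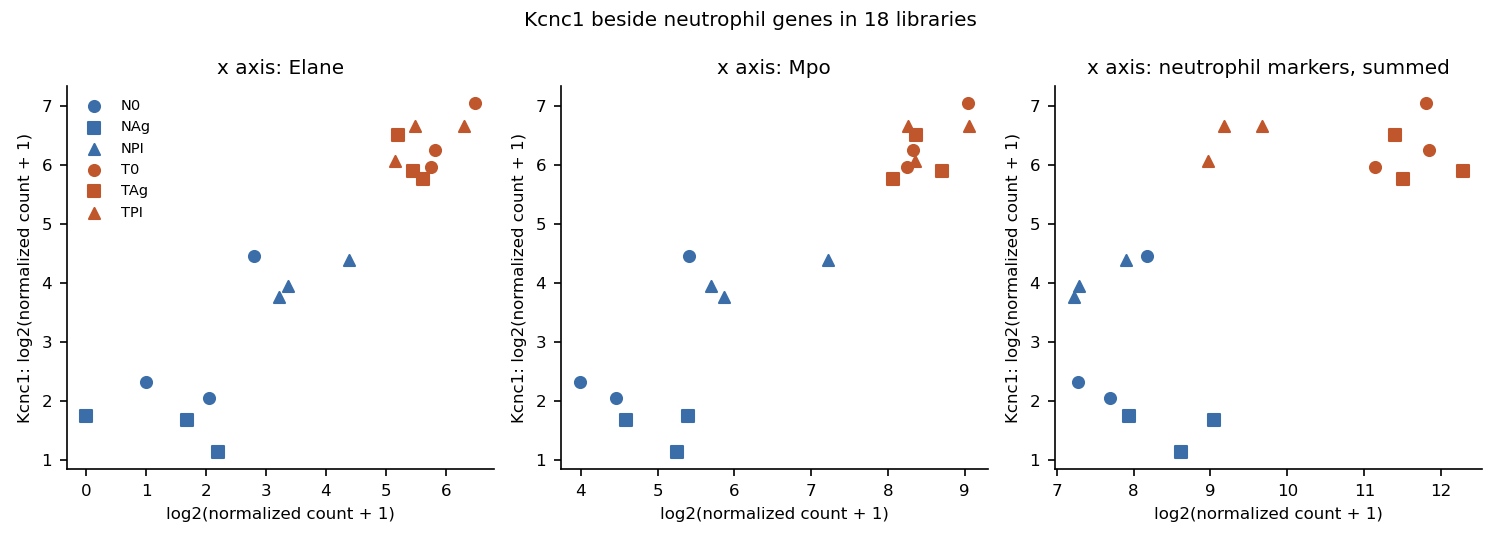
Kcnc1 against Elane, Mpo and the sum of 13 neutrophil markers, each as log2(normalized count + 1), with 1 point per library, colored by cell state and shaped by treatment. Kcnc1 rose with Elane and Mpo over all 18 libraries, while the 3 TPI libraries (orange triangles) lay at 500.1 to 814 in the summed markers, below the other tolerized libraries but with similar Kcnc1.

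The window before the RefSeq start of Kcnc1 (GRCm38.p6, chr7:46396218-46396467, plus strand) is shown for contrast with Scg2, since its GC content was 74.4% against 48.0% for Scg2 and a median of 52.4% over all windows.
Kcnc1: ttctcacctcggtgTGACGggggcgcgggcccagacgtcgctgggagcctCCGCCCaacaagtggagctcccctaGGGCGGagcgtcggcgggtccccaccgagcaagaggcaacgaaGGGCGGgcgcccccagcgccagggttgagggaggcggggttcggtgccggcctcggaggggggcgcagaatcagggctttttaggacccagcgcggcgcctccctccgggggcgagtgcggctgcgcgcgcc
The capitals mark 3 copies of GGGCGG, the GC box bound by SP factors, which start 200, 175 and 132 bases before the start of transcription on 1 or the other strand, and 1 copy of TGACG, the shorter part of the cyclic AMP response element, at 236 bases. The GC box letters were present in 32.7% of all windows and TGACG in 17.8%. None of the letters for AP-1, NFAT, EGR or TATA was found here.

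Greb1, Kcnh3 and Sp6 shared 1 pattern. They were expressed in resting naive cells, were low in tolerized cells in all conditions and were low in naive cells after Ag, but were near their resting level in naive cells treated with PI. The values of NPI:N0, which are given with no test, were -0.02 for Greb1 (95% interval -0.73 to 0.68), -0.45 for Kcnh3 (-1.06 to 0.16) and -0.15 for Sp6 (-0.50 to 0.21) on the log2 scale. Pearson correlations over the 18 libraries on the log2(count + 1) scale were 0.925 for Greb1 with Kcnh3, 0.909 for Greb1 with Sp6 and 0.938 for Kcnh3 with Sp6, as a description. All 3 were called lower in TPI than in NPI, and all 3 were called higher in NPI than in NAg, where 21.3% of all genes tested were called higher and 18.4% lower. In TPI:TAg, where 18.3% of all genes were called higher and 18.8% lower, 2 of the 3 were called higher.

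Markers of CD8 T cells, Cd8a and Cd8b1, had their highest median sums in N0 and NPI, and NAg replicate 3 overlapped NPI. Their summed normalized counts were 210 to 260 in N0, 170 to 197 in NPI, 83.9 to 180 in NAg, 81.5 to 126 in T0, 51.3 to 106 in TAg and 52.5 to 70.4 in TPI, and neither gene was at 0 throughout a group. Both were called lower in TPI:NPI, with a median log2 fold change of -1.63, and Cd8b1 alone in T0:N0 and in TAg:NAg, where without NAg replicate 3 none was called by edgeR. Cd8b1 made up most of each sum. Cd8a alone had 17.8 to 44.6 in N0, 26.3 to 34.1 in NPI, 10.8 to 25.3 in NAg and 14.4 to 33.6 in T0. It had 17.6 to 47.1 in TAg and 6.46 to 10.9 in TPI, so for Cd8a only TPI lay apart from N0. The part of CD8 T cells in the values of the 3 genes was not tested.

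Sp6 (ENSMUSG00000038560, NCBIM37 chromosome 11, 96874708 to 96886048, plus strand) was the most abundant of the 3. The normalized counts were 154, 207 and 176 in N0, 17.98, 10.6 and 16.5 in NAg and 174, 147 and 162 in NPI. In tolerized cells they were 19.5, 25.6 and 18.2 in T0, 9.91, 4.77 and 6.15 in TAg and 25.1, 28.5 and 20.3 in TPI. N0 and NPI overlapped each other and lay above all other libraries. The difference TPI:NPI was -2.72 on the log2 scale (SE 0.20, edgeR adjusted p = 3.11e-10), with means of 24.6 ± 4.12 and 161 ± 13.2 (SD, n = 3), against values of -3.07 at rest and -1.09 after Ag. Sp6 was 10.6-fold higher in NPI than in NAg (log2 3.41, SE 0.23, edgeR adjusted p = 1.45e-12) and 3.45-fold higher in TPI than in TAg (log2 1.79, SE 0.30, edgeR adjusted p = 1.46e-05). TAg replicate 3, the only TAg library that matched the TPI libraries in sex, had 6.15.

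The exons of Sp6 share 3329 bp with Gm11532, a gene on the opposite strand, and whether the counting used the strand is not stated, so reads of the pair cannot be told apart with certainty. Gm11532 itself had normalized counts of 22.8 to 44.6 in N0, 4.40 to 10.4 in NPI and 21.1 to 24.8 in T0, and at most 5.08 in the other groups. Its replicates overlapped between N0 and T0, whereas those of Sp6 did not. The part of Gm11532 reads in the Sp6 values was not tested.

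Greb1 (ENSMUSG00000036523, NCBIM37 chromosome 12, 16677421 to 16807692, minus strand) had normalized counts of 26.8, 68.9 and 66.4 in N0, 0, 4.70 and 3.30 in NAg and 59.3, 42.9 and 56.9 in NPI. It had 4.42, 7.95 and 4.80 in T0, 3.30, 1.19 and 1.03 in TAg and 4.04, 1.10 and 4.36 in TPI. The resting and PI-treated naive libraries were all above 26, and all other libraries were below 8. TPI:NPI gave a log2 fold change of -3.93 (SE 0.47, edgeR adjusted p = 4.78e-07), the 18th largest fall of all genes tested, against a value of -3.21 at rest. NPI was 18.9-fold above NAg (log2 4.24, SE 0.52, edgeR adjusted p = 1.17e-07). TPI and TAg, with 12 and 5 reads in all, did not pass the test (log2 0.83, 95% interval -0.83 to 2.5, edgeR adjusted p = 0.382). RefSeq lists 2 starts for Greb1, and none of the motifs named above, GC box and TGACG included, was found in the 250 bases before either.

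Kcnh3 (ENSMUSG00000037579, NCBIM37 chromosome 15, 99055292 to 99073248, plus strand) had normalized counts of 48.5, 73.1 and 50.6 in N0, 0, 0 and 1.10 in NAg and 41.6, 37.4 and 46.7 in NPI. It had 5.31, 15.01 and 6.71 in T0, 1.10, 0 and 1.03 in TAg and 4.04, 3.29 and 2.90 in TPI. The PI-treated naive libraries lay just below the resting ones, and the libraries after Ag held 1 read in NAg and 2 reads in TAg altogether. TPI:NPI gave a log2 fold change of -3.58 (SE 0.41, edgeR adjusted p = 2.27e-07), against a value of -2.65 at rest. NPI:NAg gave a ratio of 110 with a 95% counting interval of 19.4 to 4370 (edgeR adjusted p = 2.04e-09). TPI:TAg, with 12 against 2 reads, gave a ratio of 4.63 with a counting interval of 1.03 to 42.6 (edgeR adjusted p = 0.0338). That last call was lost without TAg replicate 2 (edgeR adjusted p = 0.122), without TAg replicate 3 (0.0549), without TPI replicate 1 (0.0808), with DESeq2 (0.0816) and with only TPI and TAg in the fit (0.0504).

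With T0 replicate 3 as the only T0 library, the 1 whose reads of Y-linked genes were as few as those of the N0 libraries, T0:N0 was -3.46 for Greb1, -3.07 for Kcnh3 and -3.29 for Sp6 on the log2 scale, as values of 1 library with no test. The part of sex in the resting values was not tested. Next in rank below the 3 genes at rest stood Ptgir, a prostacyclin receptor gene, with a log2 fold change of -2.22 and means of 17.8 in T0 and 83.4 in N0. In T0:N0 as a whole 5.06% of genes were called higher and 1.13% lower. The largest rises were Ngp (5.61) and Ltf (5.60), both neutrophil granule genes, and Il10 (5.43), none of which is among the 7 genes.

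The genes most like these 3 over the libraries overlapped in part. Arhgap29 (r = 0.942), Adcy6 (r = 0.939) and Rasal1 (r = 0.935) were closest to Greb1, Adcy6 (r = 0.979), Nhsl1 (r = 0.973) and Fanci (r = 0.967) to Kcnh3, and Afap1 (r = 0.978), Rasal1 (r = 0.957) and Arhgap29 (r = 0.954) to Sp6. Adcy6, an adenylyl cyclase gene, averaged 1523 normalized counts in N0, 207 in NAg, 1373 in NPI, 631 in T0, 269 in TAg and 343 in TPI. For Scg2 the closest were Tox (r = 0.978), Nfat5 (r = 0.969) and Zfp703 (r = 0.96). Tox, a transcription factor gene of chronically stimulated T cells, averaged 1346, 1653, 1778, 1379, 2821 and 2587 in the same order of groups, so it was expressed in all of them, unlike Scg2.

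Plaur (ENSMUSG00000046223, NCBIM37 chromosome 7, 25247519 to 25260892, plus strand) was high in naive cells after Ag and in both states after PI, and was low in tolerized cells after Ag. The normalized counts were 48.5, 132 and 65.5 in N0, 2281, 2795 and 1924 in NAg and 773, 832 and 829 in NPI. In tolerized cells they were 98.2, 43.3 and 48.0 in T0, 55.0, 52.5 and 65.6 in TAg and 468, 555 and 651 in TPI. T0, TAg and N0 overlapped, and NAg stood above all other groups. NPI:N0 gave a log2 fold change of 3.32 (SE 0.31, edgeR adjusted p = 5.39e-07) and TPI:T0 one of 3.14 (SE 0.32, edgeR adjusted p = 9.39e-07). For Ag the values, chosen on TAg:NAg, were 4.84 (95% interval 4.16 to 5.52) in NAg:N0 and -0.13 (-1.01 to 0.75) in TAg:T0. Whether the responses differ between the states was not tested.

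Between the cell states, Plaur was 40.2-fold lower in TAg than in NAg, a value that chose it, but TPI:NPI gave a log2 fold change of -0.54 (95% interval -1.09 to 0.02, edgeR adjusted p = 0.122). The means were 558 ± 91.4 and 811 ± 33.3 (SD, n = 3), and the TPI libraries were all below the NPI libraries. With only TPI and NPI in the fit the value was -0.51 and passed (edgeR adjusted p = 0.00151), with a fold below 2. Of 10 markers of macrophages and monocytes, cells known to express Plaur, 6 were called lower and 1, Lyz2, higher in TAg:NAg (5 and 1 without NAg replicate 1, with the median log2 fold change at -2.07 instead of -3.51). Their summed level did not follow that count, with 2188, 669 and 576 in NAg replicates 1 to 3 and 963 to 1414 in TAg, so that NAg replicates 2 and 3 lay below every TAg library and only replicate 1 above. It was 558 to 796 in N0, 1346 to 1721 in T0, 295 to 409 in NPI and 575 to 690 in TPI, and only in TPI was a marker (1 of 10) at 0 throughout. Lyz2 made up most of these sums in TAg and T0, with 688, 782 and 1064 in TAg and 903 to 1280 in T0. It had 331, 157 and 248 in NAg and 146 to 251 in N0. The sums thus follow Lyz2 there and do not describe the markers called lower. Neutrophil markers went the other way from Plaur in TAg:NAg, with 12 of 13 called higher. The part of macrophages, monocytes or neutrophils in the Plaur values was not tested.

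The window before the RefSeq start of Plaur (GRCm38.p6, chr7:24462233-24462482, plus strand) is shown because it matches the letters of several motifs, with no measure of binding.
Plaur: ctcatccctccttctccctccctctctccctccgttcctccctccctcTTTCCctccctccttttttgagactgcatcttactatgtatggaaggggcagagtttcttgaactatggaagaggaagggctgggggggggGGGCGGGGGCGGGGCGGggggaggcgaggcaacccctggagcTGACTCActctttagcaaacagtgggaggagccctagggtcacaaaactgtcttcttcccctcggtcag
The capitals mark TGACTCA, a match to the AP-1 letters TGANTCA, 69 bases before the start of transcription. They also mark 1 match to GCGNGGGCG (EGR) at 109 bases, which overlaps 3 matches to GGGCGG at 111, 105 and 100 bases, and 1 match to GGAAA (NFAT) on the opposite strand at 202 bases. The AP-1 letters were present in 6.75% of all windows, the EGR letters in 4.70% and GGAAA in 55.6%. TATAAA, present in 12.4% of windows, was in none of the windows of Scg2, Kcnc1, Greb1 and Plaur, the 4 of the 7 genes with an entry.

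Among all genes, 15.7% were called higher and 16.0% lower in NPI:N0, and 18.9% higher and 21.7% lower in TPI:T0. Of the 4 genes chosen after Ag, Scg2, Lipg and Plaur were called higher in both, and Kcnc1 in neither. In TAg:NAg, which chose these 4 genes, 6.58% of all genes were called higher and 4.21% lower. At its upper end stood Scg2 (5.51), Il10 (5.39), Kcnc1 (5.03) and, just outside, Angptl2 (4.60, with means of 8391 in TAg and 346.5 in NAg). At its lower end stood Il3 (-6.64), Lipg (-5.33), Plaur (-5.33) and, just outside, Ramp3 (-5.32, with means of 8.74 and 358), so the limit on that side fell between nearly equal values. With only TAg replicates 1 and 2, which matched the NAg libraries in sex, the log2 fold changes were 5.47 for Scg2, 5.13 for Kcnc1, -5.59 for Lipg and -5.42 for Plaur.

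Lipg (ENSMUSG00000053846, NCBIM37 chromosome 18, 75098976 to 75120917, minus strand) was nearly silent at rest, with 1 read in the 3 N0 libraries and 4 reads in the 3 T0 libraries. After Ag the normalized counts were 1352, 2022 and 2334 in NAg and 34.1, 44.1 and 62.5 in TAg, means of 1902 ± 502 and 46.9 ± 14.4 (SD, n = 3). After PI they were 53.1, 92.4 and 99.3 in NPI and 62.2, 82.3 and 80.6 in TPI, means of 81.6 ± 24.95 and 75.04 ± 11.1. NAg thus stood alone, 23.1-fold above NPI, whereas the PI-treated libraries of both states overlapped and TAg replicate 3 reached the range of TPI. In TPI:NPI the log2 fold change was -0.13 (95% interval -0.76 to 0.49, edgeR adjusted p = 0.764).

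Lipg was higher after PI in both states. NPI:N0 gave a ratio of 246 with a 95% counting interval of 43.7 to 9750 (edgeR adjusted p = 6.61e-07), and TPI:T0 a log2 fold change of 5.81 (SE 0.62, edgeR adjusted p = 7.83e-07). The values for Ag were a ratio of 5700 (1020 to 225000) in NAg:N0 and a log2 fold change of 5.15 in TAg:T0. Lipg and Plaur had a Pearson correlation of 0.817 over the 18 libraries, as a description. The genes most like Lipg were Ppp2r1b (r = 0.983), Net1 (r = 0.981) and Notch1 (r = 0.967), and those most like Plaur were Bcl2l11 (r = 0.957), Il3 (r = 0.946) and 5830405N20Rik (r = 0.942). Bcl2l11, which encodes the death-promoting protein BIM, averaged 1459 normalized counts in N0, 9171 in NAg, 7484 in NPI, 1270 in T0, 2078 in TAg and 6502 in TPI. The summed counts of 5 endothelial markers were higher after Ag in both states, mostly through Kdr. Kdr alone had 52.9 to 76.7 in NAg and 29.8 to 85.0 in TAg, against 4.18 to 14.9 in N0 and 5.76 to 16.8 in T0. The sums thus do not show a rise of each marker. The sums of all 5 were 65.8 to 93.5 in NAg and 41.7 to 98.4 in TAg, against 10.4 to 20.8 in N0 and 21.1 to 37.1 in T0. They were 5.09 to 12.5 in NPI and 9.88 to 15.4 in TPI, and 1 of the 5 markers was at 0 throughout N0, NAg and TPI. In TAg:NAg, 1 of the 3 tested was called lower, and none by edgeR without NAg replicate 1, TAg replicate 1 or TAg replicate 2. Their part in the Lipg values was not tested.

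Per kb of exon and per 1000000 counts, the levels of the 7 genes differed by several orders of magnitude. Plaur had the highest mean level of the 7 in every group but TAg, with 122 in NAg, 42.5 in NPI and 3.02 in TAg, where Scg2 had 5.35. Lipg reached 36.8 in NAg and Scg2 7.32 in TPI. At rest, Plaur (4.29) and Sp6 (3.4) led in N0. The Sp6 level was taken over all 3841 bp of its exons, of which 3329 bp are shared with Gm11532. How reads there were counted is not stated, so this level and its place beside Plaur are uncertain. Kcnc1 did not exceed 0.712 and Greb1 did not exceed 0.413 in any group, so both were scarce transcripts even where they were highest.

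**Figure D4:**
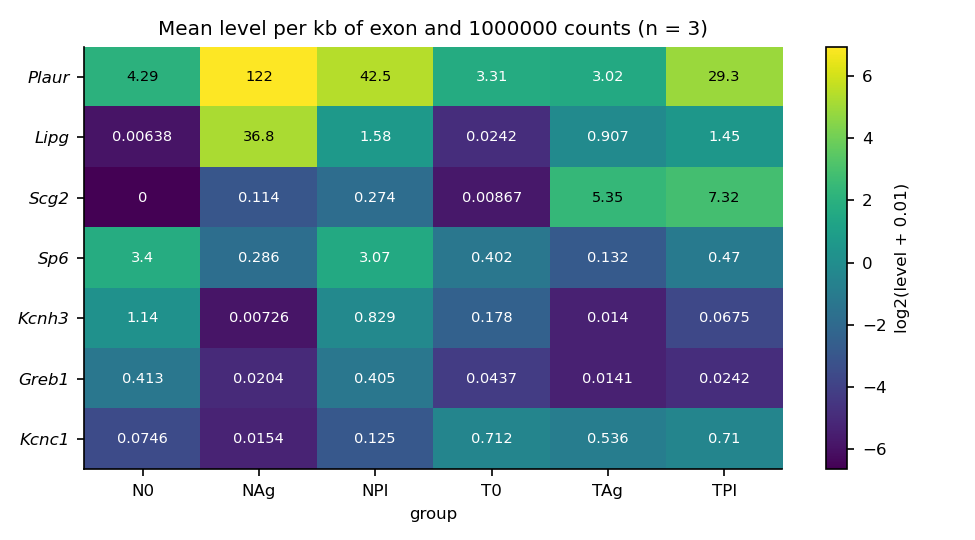
Mean level of each gene in each group, as normalized counts per kb of exon and per 1000000 counts (n = 3 libraries each), with the shade on a log2 scale and the level printed in each cell. Plaur and Lipg peaked in NAg at 122 and 36.8, Scg2 in TPI at 7.32, and Greb1, Kcnh3 and Sp6 had their highest values in N0, with NPI next.

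Relatives and partners of the 7 genes were read from lists of 77 genes, of which 76 matched and 40 were tested. Of these 40, 2 were called higher and none lower by edgeR in T0:N0 (with 8 lower at an unadjusted p under 0.05 and 0 called lower by DESeq2), 2 higher and 2 lower in TAg:NAg, and 3 higher and 4 lower in TPI:NPI. The shares called among all genes are given above. The medians over the 40 genes were -0.06, 0.00 and -0.02 on the log2 scale, beside -0.08, 0.01 and -0.04 over all genes. The median gene of these families thus differed little between the states in any condition.

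Of the voltage-gated potassium channel genes, 13 of 33 were tested. Kcnf1, which encodes a subunit that forms no channel alone, was called higher in all 3 comparisons, with 248 against 65.7 normalized counts in T0:N0 (log2 1.91, SE 0.28, edgeR adjusted p = 1.89e-04), 283 against 80.4 in TAg:NAg and 43.5 against 12.9 in TPI:NPI. Kcnq5, a gene of the M-current channels, was higher in T0:N0 (140.0 against 51.0) and in TPI:NPI (233 against 84.8, log2 1.46, edgeR adjusted p = 3.60e-06), and had 250.5 against 230 in TAg:NAg. Kcnh2, of the same KCNH family as Kcnh3, was called lower in TPI:NPI with 83.0 against 234.5 (log2 -1.49, SE 0.17, edgeR adjusted p = 1.49e-07). After Ag it had 8.56 and 8.54, so it was low after Ag in both states, as Kcnh3 was.

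Of the granins and the enzymes that process them, 4 of 9 were tested. Cpe, which encodes carboxypeptidase E, was called higher in TPI:NPI with 33.5 against 7.91 (log2 2.1, SE 0.51, edgeR adjusted p = 0.00186), and Pcsk1, a prohormone convertase gene, was called lower in TAg:NAg with 36.3 against 97.3 (log2 -1.44, edgeR adjusted p = 0.00635). The granin genes Chga and Chgb did not pass the filter on low counts. Of the SP factors, 6 of 8 were tested, and Sp4 was called lower in TAg:NAg (1513 against 3058, log2 -1.02, edgeR adjusted p = 4.91e-09). Sp1 and Sp3 were abundant in all groups, with Sp1 at 3956 in T0 and 4535 in N0.

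Of the steroid receptors and relatives of Greb1, 3 of 6 were tested. None was called by edgeR or by DESeq2 in any of the 3 comparisons, and at an unadjusted p under 0.05, 2 were lower in T0:N0, 2 higher in TAg:NAg and 1 higher in TPI:NPI. Of the lipases and their partners, 8 of 12 were tested, and Lipa, Lipe and Angptl4 were called lower in TPI:NPI. Lipa, the lysosomal acid lipase gene, had 310.5 against 628.5 there (log2 -1.02, edgeR adjusted p = 1.08e-07) and was called higher in TAg:NAg. Lipe, the hormone-sensitive lipase gene, had 50.7 against 116 in TPI:NPI, and Angptl4, an inhibitor of lipoprotein lipase, had 4.24 against 12.8.

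Of the plasminogen activation genes, 6 of 9 were tested and none was called by edgeR in any of the 3 comparisons. At an unadjusted p under 0.05, 1 was higher in T0:N0, 1 lower in TAg:NAg and none passed in TPI:NPI, and DESeq2 called 1, Plau, higher in T0:N0 and none in the other comparisons. Plau, which encodes the urokinase ligand of the Plaur product, averaged 473 normalized counts in TPI and 410.3 in NPI, against 9.09 in T0, 2.35 in N0, 3.97 in TAg and 1.94 in NAg. It was thus high after PI in both states and low after Ag in both.

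**Figure D5:**
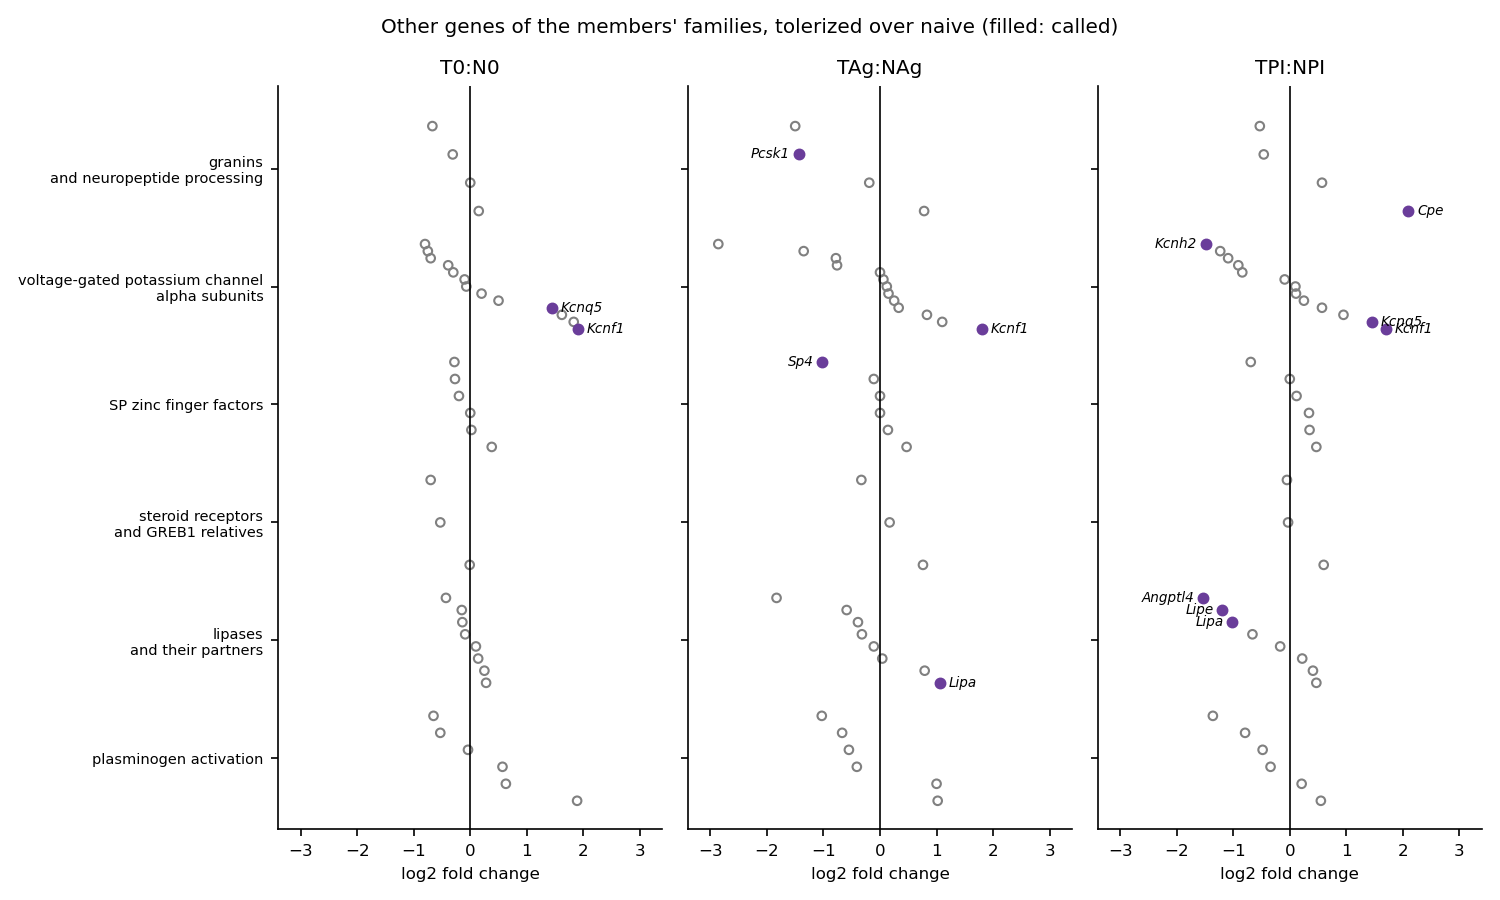
Log2 fold change of tolerized over naive cells for the 40 tested genes of 6 families at rest, after Ag and after PI, with called genes filled and named. Between 2 and 7 genes were called per comparison, and Kcnf1 was called higher in each.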

How the data were processed

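The 18 RNA-seq libraries of CD4+ T cells were assigned to 6 groups of 3 by the sample labels. The authors aligned paired-end reads to mm9 (NCBIM37) with TopHat2 2.1.1, used HTSeq 0.9.1 to count them on Ensembl genes and deposited 1 file of raw counts per library, neither normalized nor pooled. How overlapping genes and read strand were handled is not stated. Total counts ranged from 10758571 to 24119489 per library, and replicates differed by more than counting noise, with a chi-square per degree of freedom of 3.04 to 13.07.

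The counts were fitted in edgeR 4.0.16 under R 4.3.3, with TMM scaling and 1 model holding a mean for each group. The test was the robust quasi-likelihood F test, and p-values were adjusted by the Benjamini-Hochberg method over the 17240 genes whose mean normalized count reached 3 in some group. DESeq2 1.42.0 served as an alternative. Normalized counts are counts over the relative effective library size. Symbols and positions came from an annotation of the same build, for 37205 of the 37991 genes. Promoter sequences came from RefSeq (GRCm38.p6), with entries for 4 of the 7 genes.

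The 7 genes and all lists were chosen with earlier results of these data known. Besides the 7 genes, the text names their closest genes by Pearson correlation of log2(count + 1), the genes ranked next to the limit of the choice and the called genes of the families. 2 genes of these family lists are not reported here. Alternatives were DESeq2, both tests together, other size factors, other filters, only the groups compared, the replicate number as a block, left-out libraries and libraries of matched sex. Calls of marker lists without single libraries were added after seeing the data. The scripts were tested on simulated data. P-values set the difference between group means against the spread between biological replicates, which was estimated in 1 model over all 18 libraries. Replicate numbers were not found to pair the libraries, since correlations of same-numbered deviations were 0.252, 0.083 and 0 in TPI:NPI.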

Additional observations from a re-analysis of the deposited data

Results flagged for a closer look

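Among the called family genes, 4 moved in opposite directions in every library of the groups compared, and none of these differences was tested. For Lipa the log2 fold change of tolerized over naive cells was -0.43 at rest, 1.06 after Ag and -1.02 after PI. For Lipe it was 0.79 after Ag and -1.19 after PI, and for Pcsk1 -1.44 after Ag and 0.57 after PI. For Sp4 it was -1.02 after Ag and 0.35 after PI, and its responses were 0.51 in NAg:N0 against -0.24 in TAg:T0, and -0.44 in NPI:N0 against 0.18 in TPI:T0.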

How the results depend on the processing

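Of 104 recomputed counts of called genes 95 stayed within 1.5 times the main count, and of 243 recomputed log2 fold changes 229 kept their direction and their side of the threshold. Of Greb1, Kcnh3 and Sp6, 2 were called in TPI:TAg, but 1 with DESeq2, 1 with both tests together, 1 with only the groups compared, 0 with a minimum mean count of 50 and between 1 and 2 with single libraries left out. Kcnh3, which has 14 reads in both groups together, lost its call wherever the count fell, and Sp6 lost it with the minimum mean count. With single libraries left out, Kcnh3 kept its call without TAg replicate 1, TPI replicate 2 or TPI replicate 3. Family genes called in TPI:NPI numbered 4 instead of 7 with the minimum mean count of 50, which by construction leaves out low genes, and those called in TAg:NAg, 4 with all libraries, numbered between 2 and 5 with single libraries left out, the 2 being without TAg replicate 1.

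Values near 0 changed sign. Kcnc1 in TPI:T0 was 0.04 with DESeq2, 0.04 with DESeq2 size factors, 0.02 with only the groups compared and -0.24 to 0.35 with left-out libraries. Lipg in TPI:NPI ranged from -0.35 to 0.05 with left-out libraries. The cause was not tested. No other member changed direction. With the replicate block, 5 members were called in TPI:NPI and 3 family genes in T0:N0, instead of 5 and 2, and no other count changed. The lists of 3 most similar genes were unstable: of 14 recomputed lists, with Spearman's rho or with the 12 libraries at rest and after Ag, 12 shared at most 1 gene with the main list. Few reads stood behind Kcnh3 and Greb1 after Ag and behind Scg2 and Lipg at rest.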
